A study of Mus musculus with 19 samples.

Results

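The embryonic heart and the pharyngeal tissue from which it was still recruiting cells were compared in control mouse embryos at E9.5. The comparison used 9 of the 19 samples of the series, with 12381 genes ranked in both tissues. The 4 'HEART' controls held the dissected heart tube and outflow tract (OFT). The 5 'SHF' controls held the distal pharyngeal apparatus, which takes in the posterior pharyngeal arches and the dorsal pericardial wall and is named for the second heart field (SHF). Every control carried Mesp1-Cre, and the floxed Chd7 alleles were in the mutants of the series, which are not compared here. This Cre is expressed in the early Mesp1 lineage, the source of cardiopharyngeal mesoderm, but no cell was sorted by it, so each sample held all the cell types of the dissected piece. Each sample came from a single embryo, and all 4 embryos that gave a 'HEART' control also gave an 'SHF' control.

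At E9.5 the linear heart tube has looped and beats. It lengthens at both poles by adding cells of the second heart field, a population of splanchnic mesoderm behind and below the pharynx that proliferates before it differentiates. The anterior part of this field, marked by Tbx1, Isl1 and Fgf10, feeds the right ventricle and OFT, and the posterior part, marked by Tbx5 and Osr1, feeds the atria and venous pole. The arches around it also hold neural crest, endoderm, ectoderm, head muscle progenitors, vessels and ganglia.

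The 'HEART' values were read counts per embryo, 11577144 to 15030099 in total, expressed here per kb of exon and scaled to a library total of 1000000 (CPM). For 'SHF' the values were the authors' control FPKM, 1 per gene over their control samples, with no spread and unknown depth. The 'HEART' libraries were made from poly(A) mRNA and the 'SHF' libraries from total RNA depleted of ribosomal RNA, and reads were assigned to genes differently, so tissue, library kit and counting cannot be told apart and no test was possible. Genes were therefore ranked within each tissue and placed on a percentile scale, where 100 is the most abundant. A gene was called higher in a tissue when its percentile there was at least 20 points above that in the other, the 'SHF' percentile lay outside the range of the 4 'HEART' embryos, and its level in the higher tissue was at least 1 CPM per kb or 1 FPKM. As a second measure the log2 ratio of 'HEART' to 'SHF' was centred on its median over all genes, which was -0.84.

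The 4 'HEART' embryos had closely similar rankings. Spearman's rho across genes was 0.987 to 0.993 between pairs, and at most 0.775% of genes lay 20 points apart in any pair. Between 'HEART' and 'SHF' rho was 0.806, and 81.3% of genes lay within 20 points. Of the 12381 genes, 1119 were called higher in 'HEART' (9.04%) and 1194 higher in 'SHF' (9.64%), and the median size of the rank difference over all genes was 8.497 points. The shares of 9.04% and 9.64% are the background for the counts of every gene list below in this ranking. Counts from another ranking have their own background. The gene length used for 'HEART' mattered: ranked by CPM without division by length, 1099 and 1191 genes were called, of which 672 and 662 were among these calls. Control 4 of 'HEART' stood somewhat apart. It had the most blood cell, keratin and fibrillar collagen RNA, which is given where it touches a result, and counts without it are given with the limits.

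**Figure D1:**
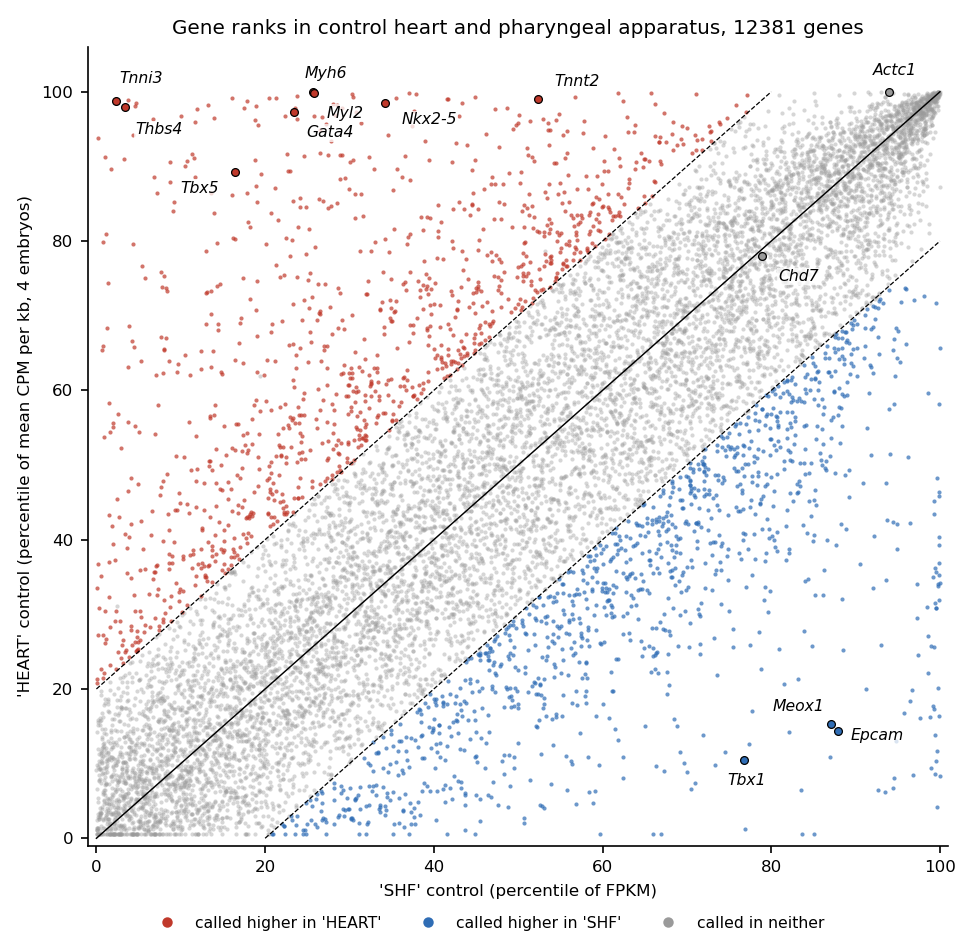
Percentile of each of the 12381 ranked genes in 'HEART' control embryos (vertical axis, mean of 4) and in the 'SHF' control value (horizontal axis), with genes called higher in 'HEART' in red, those called higher in 'SHF' in blue and all others in grey. Labelled sarcomere and cardiac factor genes lie in the upper left, and Tbx1, Epcam and Meox1 in the lower right.

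The contractile apparatus ranked higher in 'HEART'. Of 39 ranked genes for thick filaments, thin filaments and the Z-disc, 36 were called higher in 'HEART' and 0 higher in 'SHF', and 35 and 0 without division by length. In the thick filament, 9 of 10 genes were called, with a median difference of 65.2 points. Myosin heavy chain Myh6, the alpha isoform, had 1166, 1324, 1328 and 1045 CPM per kb in the 'HEART' embryos, against 2.89 FPKM in 'SHF'. That placed it at percentile 99.9 in 'HEART' and 25.7 in 'SHF'. Myh7, the beta isoform, had 836 ± 109 CPM per kb (SD, n = 4) in 'HEART' and 16.7 FPKM in 'SHF'. These neighbouring genes share 25.8% (Myh6) and 25.3% (Myh7) of their read-length words with other genes, so their split is uncertain.

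The light chains gave a graded picture. Myl2, the ventricular regulatory light chain, had 1038, 1110, 1176 and 780 CPM per kb in 'HEART', against 2.92 FPKM in 'SHF', a difference of 74.1 points. Myl7, the atrial regulatory light chain that is expressed throughout the early heart tube, had 6062, 5650, 5663 and 6073 CPM per kb in 'HEART', against 73.1 FPKM in 'SHF'. As it ranked near the top in both tissues it moved only 6.93 points and was not called, although its centred log2 ratio was 7.16. Cardiac actin Actc1, at 9833 ± 198 CPM per kb (SD, n = 4) in 'HEART' and 83.1 FPKM in 'SHF', behaved likewise, with 5.99 points and a ratio of 7.73. 'SHF' tissue held measurable RNA of the most abundant myocardial genes, and whether it came from differentiated cells at the edge of the dissection was not tested.

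Thin filament genes were called in 10 of 12 cases (median 44.7 points). The difference of Tnni3, cardiac troponin I, was the largest of any named gene: 183, 200, 200 and 164 CPM per kb in 'HEART', against 0.446 FPKM in 'SHF', which is 96.4 points. The gene lies at chr7:4518305-4524229 (GRCm38). Cardiac troponin T (Tnnt2) had 244, 239, 249 and 205 CPM per kb in 'HEART', against 10.1 FPKM in 'SHF'. Cardiac troponin C (Tnnc1) had 1013 ± 41.1 CPM per kb (SD, n = 4) in 'HEART' and 14.6 FPKM in 'SHF', and Lmod2, a factor that lengthens thin filaments, 35.2 ± 7.96 CPM per kb in 'HEART' and 0.422 FPKM in 'SHF'. The 'HEART' embryos lay far above the 'SHF' value for each of these genes. Tpm1 ranked near the top in both tissues, at percentile 99.7 in 'HEART' and 97.4 in 'SHF'. It differed by only 2.27 points and was not called, although its centred log2 ratio was 2.33.

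All 17 ranked Z-disc and scaffold genes were called higher in 'HEART', by a median of 69.7 points. The small heat shock protein gene Hspb7, with 261, 236, 254 and 213 CPM per kb in 'HEART' and 1.48 FPKM in 'SHF', and Csrp3, the muscle LIM protein, with 194, 185, 187 and 170 CPM per kb in 'HEART' and 1.66 FPKM in 'SHF', were among the largest. At the other end was Pdlim5 (56.2 ± 0.232 CPM per kb in 'HEART' (SD, n = 4), 20.1 FPKM in 'SHF'), at 23.2 points.

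Promoters of these genes are shown because their members ranked together and because serum response factor (Srf), itself called higher in 'HEART' (70.5 ± 8.84 CPM per kb (SD, n = 4), 15.7 FPKM in 'SHF'), is known to bind the CArG box of muscle genes. RefSeq windows of 300 bases, 250 before and 50 after each start, were at hand for 32 of the 36 called genes and for 9671 ranked genes. A CArG box on either strand was found for 6 of the 32 genes (18.8%), against 1.59% of all ranked genes with a window. The corresponding shares were 9.38% and 0.507% for the MEF2 site. The M-CAT element CATTCC, bound by TEAD factors, was found for 40.6% of the 32 genes and 14.4% of all genes. A GATA site, AGATAA, was found for 21.9% and 7.59%, and the TATA box, TATAAA, for 8 of the 32 genes and 8.60% of all. The sarcomere genes had a mean of 1.38 windows per gene and all genes 1.28. Such letters describe the window and do not show binding. The 4 called sarcomere genes of largest difference with a CArG box were Ldb3 (chr14:34588682-34588931, minus strand, box beginning at -35 from the start), Myom1 (chr17:71019307-71019556, plus strand, -99), Acta1 (chr8:123894776-123895025, minus strand, -73) and Myl3 (chr9:110763428-110763677, plus strand, -85). The 250 bases before each start follow in GRCm38.p6, with the CArG box in capitals.
Ldb3: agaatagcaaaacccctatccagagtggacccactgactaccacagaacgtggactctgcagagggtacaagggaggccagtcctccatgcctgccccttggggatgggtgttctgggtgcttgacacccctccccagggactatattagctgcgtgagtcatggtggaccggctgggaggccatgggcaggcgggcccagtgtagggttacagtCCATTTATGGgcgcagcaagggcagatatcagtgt
Myom1: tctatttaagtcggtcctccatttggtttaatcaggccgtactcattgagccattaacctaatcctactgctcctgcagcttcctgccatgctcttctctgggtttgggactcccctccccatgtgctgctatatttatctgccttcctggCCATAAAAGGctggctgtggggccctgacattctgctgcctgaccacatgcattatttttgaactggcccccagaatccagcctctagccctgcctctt
Acta1: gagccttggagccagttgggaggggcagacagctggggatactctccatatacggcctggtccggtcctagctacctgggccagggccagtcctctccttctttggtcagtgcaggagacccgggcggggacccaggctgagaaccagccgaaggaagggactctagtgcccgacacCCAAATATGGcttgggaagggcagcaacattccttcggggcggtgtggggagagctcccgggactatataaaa
Myl3: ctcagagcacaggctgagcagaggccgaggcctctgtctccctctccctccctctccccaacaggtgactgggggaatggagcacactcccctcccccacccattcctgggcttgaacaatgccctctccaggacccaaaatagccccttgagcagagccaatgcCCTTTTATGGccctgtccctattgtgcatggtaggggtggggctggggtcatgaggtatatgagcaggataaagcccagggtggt
Ldb3, a Z-disc PDZ and LIM protein, had 83.4, 77.9, 89.3 and 79.0 CPM per kb in 'HEART', against 1.79 FPKM in 'SHF'. The M-band protein gene Myom1 had 122 ± 5.26 CPM per kb in 'HEART' (SD, n = 4), against 3.59 FPKM in 'SHF'. Skeletal actin Acta1, which the embryonic heart also uses, had 781 ± 24.1 CPM per kb in 'HEART' and 5.38 FPKM in 'SHF', and the ventricular essential light chain Myl3 548 ± 70.6 CPM per kb in 'HEART' and 5.61 FPKM in 'SHF'.

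**Figure D2:**
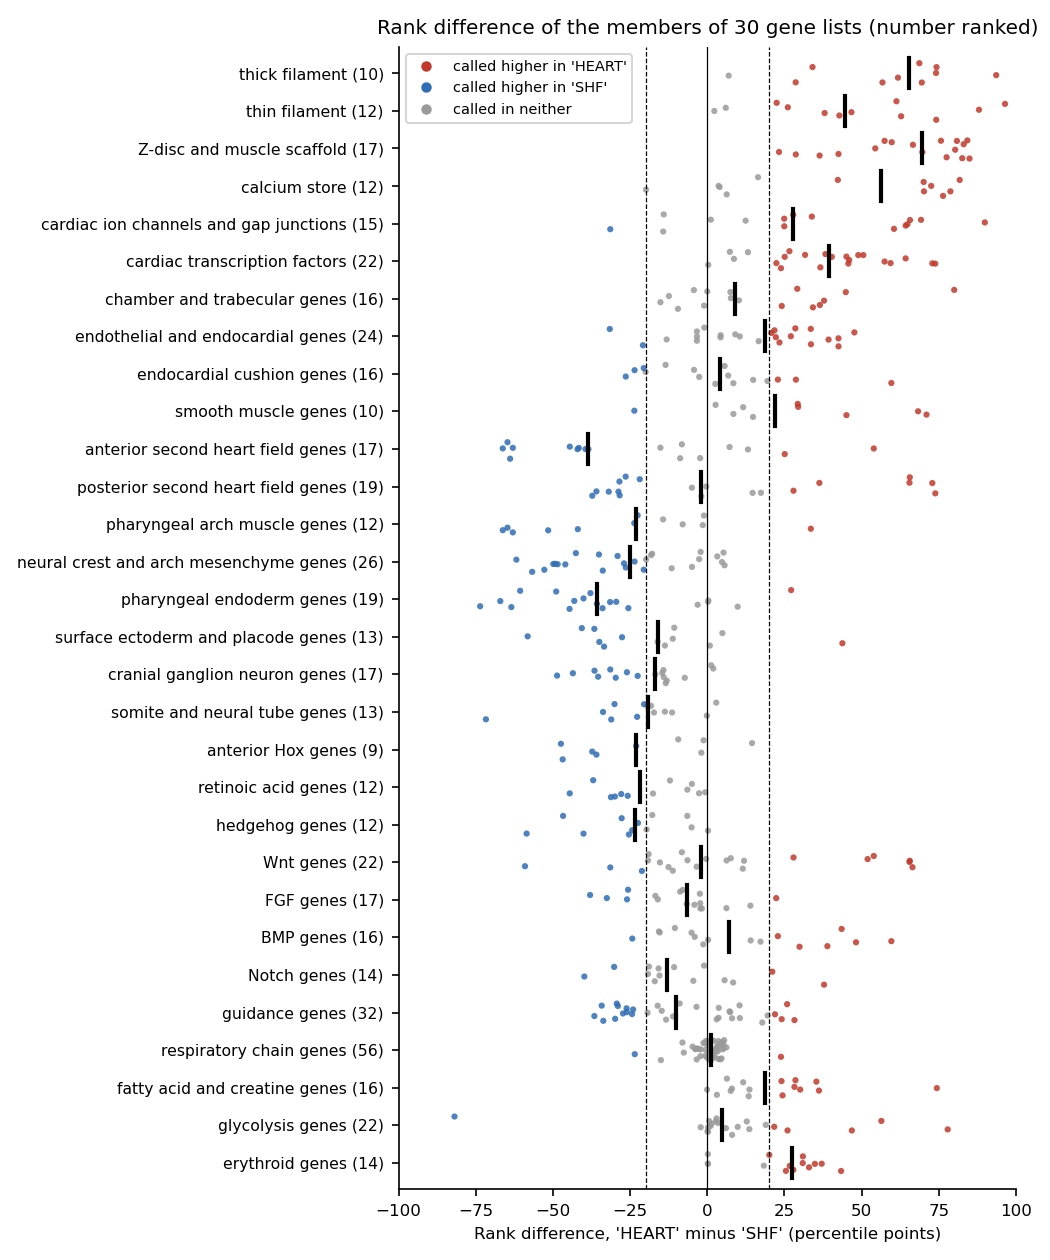
Rank difference ('HEART' minus 'SHF', percentile points) of every ranked member of 30 gene lists, with the list median as a black bar, called genes in red ('HEART') or blue ('SHF') and the threshold of 20 points as dashed lines. Sarcomere lists lie to the right, and neural crest, endoderm, retinoic acid and hedgehog lists to the left.

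Excitation and calcium handling followed the contractile genes. Of 12 ranked genes of the calcium store 7 were called higher in 'HEART' and 0 higher in 'SHF' (median 56.2 points). Pln, the phospholamban that restrains the calcium pump, had 29.5, 32.6, 48.6 and 18.6 CPM per kb in 'HEART', against 0.669 FPKM in 'SHF'. Casq1, a calsequestrin that stores calcium, had 258 ± 21.2 CPM per kb in 'HEART' and 2.03 FPKM in 'SHF', and the sodium-calcium exchanger Slc8a1 149 ± 11.2 CPM per kb in 'HEART' and 3.39 FPKM in 'SHF'. The pump itself, Atp2a2, was abundant in both (613 ± 18.3 CPM per kb in 'HEART', 115 FPKM in 'SHF') and differed by 4.01 points. As it ranked near the top in both tissues it was not called, although its centred log2 ratio was 3.26. Of 15 ion channel and gap junction genes 10 were called higher in 'HEART'. Cacna2d2, a calcium channel accessory subunit, had 52.8, 54.6, 58.2 and 59.4 CPM per kb in 'HEART', against 0.527 FPKM in 'SHF', and the pacemaker channel gene Hcn4 21.7, 16.4, 17.1 and 15.0 CPM per kb in 'HEART', against 1.15 FPKM in 'SHF'. The 1 gene called the other way was Gja1 (connexin 43), with 9.48, 10.6, 10.02 and 7.33 CPM per kb in 'HEART' and 104 FPKM in 'SHF', a call that was lost without division by length. Gja5 (connexin 40), with 15.5 ± 1.59 CPM per kb in 'HEART' and 15.6 FPKM in 'SHF', was called in neither.

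Of 22 cardiac transcription factor genes, 18 were called higher in 'HEART' and 0 higher in 'SHF', with a median of 39.3 points. Gata4 had 112, 107, 102 and 96.0 CPM per kb in 'HEART', against 2.48 FPKM in 'SHF' (73.9 points). The T-box factor Tbx5 had 34.5, 34.9, 32.7 and 34.0 CPM per kb in 'HEART', against 1.51 FPKM in 'SHF' (72.9 points). Nkx2-5, an early marker of cardiac commitment, had 175, 141, 157 and 161 CPM per kb in 'HEART', against 4.71 FPKM in 'SHF' (64.3 points). In each case all 4 embryos were close together and far above the 'SHF' percentile. The 4 factors called in neither tissue were Mef2c, Mef2a, Tead1 and Rxra. Without division by length Mef2c and Mef2a were called higher in 'HEART', by 32.3 and 31.7 points. With the longest transcript as length they were also called, by 24.6 and 23.6 points. Mef2c had 15.2 ± 0.514 CPM per kb in 'HEART' (SD, n = 4), at percentile 75.5, and 14.9 FPKM in 'SHF', at percentile 62.3.

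Chamber genes were mixed, with 7 of 16 called higher in 'HEART' and 0 higher in 'SHF' (6 and 2 without division by length). Irx4, a ventricular homeobox gene, had 45.8, 36.6, 35.6 and 36.4 CPM per kb in 'HEART' and 0.943 FPKM in 'SHF', a difference of 80.0 points. The ventricular repressor gene Hey2 (14.3 ± 1.46 CPM per kb in 'HEART', 5.20 FPKM in 'SHF') and the neuregulin receptor gene Erbb4 (4.66 ± 0.978 CPM per kb in 'HEART', 0.870 FPKM in 'SHF') were also called. Its ligand Nrg1 was at 0.651 ± 0.270 CPM per kb in 'HEART' and 4.08 FPKM in 'SHF', at -15.2 points.

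The ranking leaves out genes that had no test in the authors' 'SHF' table, and 24 of these had at least 10 CPM per kb in 'HEART', so they are absent from the counts above. 'HEART' had no such filter, so genes at or near 0 there were ranked where their 'SHF' locus had a test. Atrial natriuretic peptide Nppa had 307, 488, 448 and 232 CPM per kb in 'HEART', listed beside 0.300 FPKM in 'SHF', and its paralogue Nppb 57.8, 125, 147 and 65.3 CPM per kb, beside 0.114 FPKM. In both genes controls 1 and 4 were the lower embryos. The others of highest 'HEART' level were Cox6a2, the muscle isoform of a respiratory chain subunit (103 ± 16.3 CPM per kb), the potassium channel gene Kcnj5 (45.8 ± 2.80), Mybphl (43.9 ± 4.64), Lrrc10 (43.5 ± 2.30), Hspb3 (33.0 ± 3.72) and Tcap, the titin cap (30.8 ± 3.14), each with 4 embryos and at most 0.219 FPKM in 'SHF'.

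Several genes outside the contractile lists had equally large differences. The matrix glycoprotein gene Thbs4 had 128, 130, 111 and 143 CPM per kb in 'HEART', against 0.484 FPKM in 'SHF' (94.6 points). Fsd2 had 52.9 ± 4.02 CPM per kb in 'HEART' and 0.259 FPKM in 'SHF' (93.6 points), Pygm, muscle glycogen phosphorylase, 83.6 ± 13.4 CPM per kb in 'HEART' and 0.661 FPKM in 'SHF' (89.7 points), Klhl30 40.0 ± 0.813 CPM per kb in 'HEART' and 0.483 FPKM in 'SHF' (87.7 points) and Rrad, a small GTPase that restrains calcium channels, 94.0 ± 9.41 CPM per kb in 'HEART' and 0.893 FPKM in 'SHF' (86.8 points). Scd2, Eif4a1 and Senp3 were also among the 12 of largest difference, but each symbol also lay in a joined 'SHF' locus of 266 to 522 FPKM, so their single-symbol 'SHF' value is not their whole signal. Myl1 (141 ± 8.97 CPM per kb in 'HEART', 0.541 FPKM in 'SHF') shares 25.5% of its words with other genes.

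**Figure D3:**
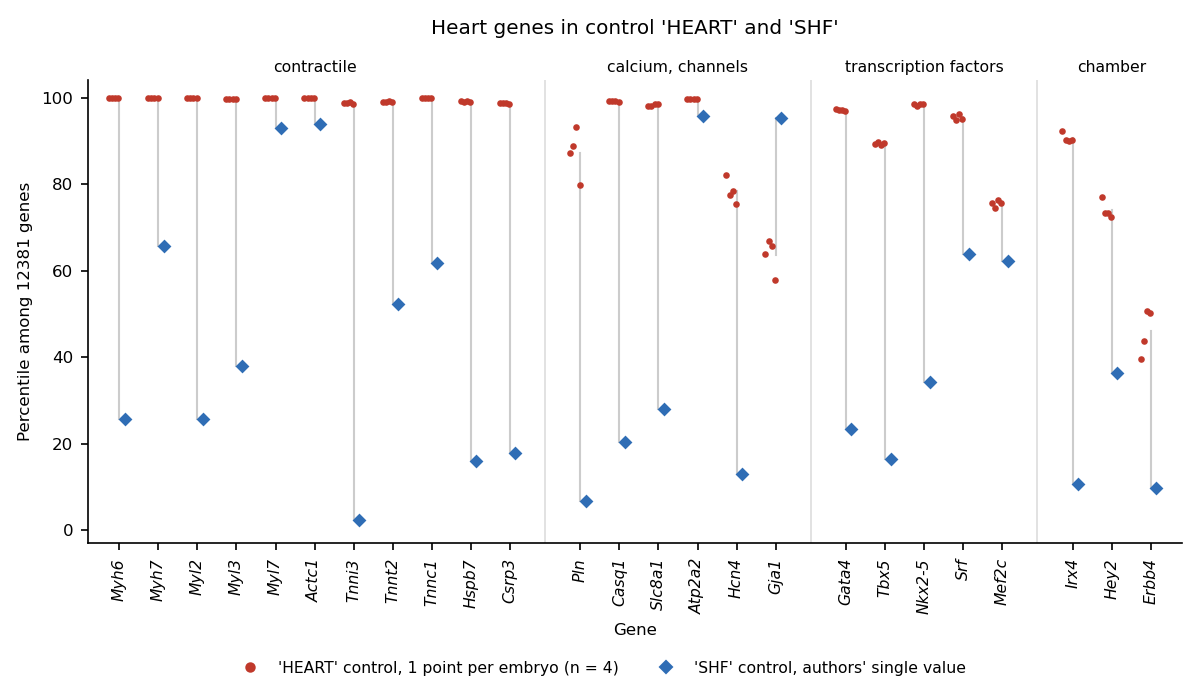
Percentile in each of the 4 'HEART' control embryos (red points) and of the 'SHF' control value (blue diamond) for genes of the contractile apparatus, calcium handling, cardiac transcription factors and chambers. For every gene shown except Myl7, Actc1, Atp2a2, Mef2c and Gja1 the 'SHF' value lies at least 20 points below all 4 embryos.

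Energy supply genes were compared by pathway. The median centred log2 ratio was 1.53 for fatty acid and creatine genes and 1.52 for glycolysis genes. Glycolysis genes had median percentiles of 97.1 in 'HEART' and 91.9 in 'SHF'. Near the top of both rankings a difference of 20 points cannot arise. Of 16 fatty acid and creatine genes 8 were called higher in 'HEART' and 0 higher in 'SHF' (median 18.9 points). Acadl, a long-chain acyl-CoA dehydrogenase, had 35.3, 41.1, 41.4 and 33.9 CPM per kb in 'HEART', against 10.9 FPKM in 'SHF'. The fatty acid uptake gene Cd36 had 8.27 ± 0.310 CPM per kb in 'HEART' (SD, n = 4) and 4.33 FPKM in 'SHF', and Fabp3, a fatty acid binding protein gene that shares 32.1% of its words with other genes, 91.4 ± 11.8 CPM per kb in 'HEART' and 2.31 FPKM in 'SHF'. Of 22 glycolysis genes 5 were called higher in 'HEART', among them the muscle isoforms Pgam2 (271 ± 11.5 CPM per kb in 'HEART', 2.16 FPKM in 'SHF') and Pfkm, and Hk1 (94.6 ± 8.83 CPM per kb in 'HEART', 9.28 FPKM in 'SHF'). The core enzymes ranked equally high in both tissues: Ldha was at percentile 99.9 in 'HEART' and 99.7 in 'SHF', and Aldoa at 99.9 in 'HEART' and 99.3 in 'SHF'. Eno1 was listed at 0.758 ± 0.160 CPM per kb in 'HEART' and 568 FPKM in 'SHF', but 74.3% of its words occur in other genes. Of 56 nuclear genes of the respiratory chain 54 were called in neither tissue. Without division by length 1 was called higher in 'HEART' and 6 higher in 'SHF'.

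Genes of vessel lining, valves and epicardium were compared next. Of 24 endothelial and endocardial genes 12 were called higher in 'HEART' and 2 higher in 'SHF' (8 and 2 without division by length, and 4 and 0 when 'SHF' loci of any status were ranked). Nfatc1, the endocardial transcription factor, had 10.3, 13.5, 10.5 and 9.91 CPM per kb in 'HEART', against 2.83 FPKM in 'SHF', and the shear-responsive Klf2 16.0, 16.1, 13.3 and 12.8 CPM per kb in 'HEART', against 4.27 FPKM in 'SHF'. The pan-endothelial gene Pecam1 did not reach the threshold (13.7 ± 1.76 CPM per kb in 'HEART', 12.03 FPKM in 'SHF', 16.7 points). The genes called the other way were Emcn (5.99 ± 1.36 CPM per kb in 'HEART', 22.4 FPKM in 'SHF') and Fli1 (5.05 ± 0.976 CPM per kb in 'HEART', 29.5 FPKM in 'SHF'). In bulk tissue, fewer cells of a type and less RNA per cell cannot be told apart. Among 16 cushion genes Bmp2, a myocardial signal for cushion formation, ranked higher in 'HEART' by 59.6 points (22.0, 22.0, 23.3 and 28.8 CPM per kb, against 2.75 FPKM in 'SHF'), with Tgfb2 and Bmp4, whereas Twist1, Snai1 and Snai2 ranked higher in 'SHF'. Snai2 kept its call without control 4 but not without any of the other embryos. Of 10 smooth muscle genes 5 were called higher in 'HEART', led by Cnn1 (93.7 ± 4.73 CPM per kb in 'HEART', 2.91 FPKM in 'SHF'), and Cald1 higher in 'SHF' (11.1 ± 1.85 CPM per kb in 'HEART', 65.0 FPKM in 'SHF'). Acta2, Myl9 and Tagln ranked high in both tissues and were not called, although their centred log2 ratios were 6.11, 5.48 and 4.16. By a ratio of at least 2 in size (pseudocount 0.1), 8 of the 10 were higher in 'HEART' and 0 higher in 'SHF'. Epicardial genes split, with Upk1b (4.69 ± 1.67 CPM per kb in 'HEART', 0.502 FPKM in 'SHF') and Wt1 (3.21 ± 0.971 CPM per kb in 'HEART', 0.902 FPKM in 'SHF') called higher in 'HEART' and Tcf21 and Sema3d higher in 'SHF', although neither Tcf21 nor Emcn reached the threshold without control 4.

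Blood cells were measured in both dissections. Of 14 ranked erythroid genes 10 were called higher in 'HEART' and 0 higher in 'SHF', falling to 6 without control 4 and 5 without division by length, but the embryonic globins were near the top in both. Hbb-y had 2310, 2567, 3074 and 6069 CPM per kb in 'HEART', against 1488 FPKM in 'SHF'. The summed erythroid level was 6233 to 17742 CPM per kb over the 'HEART' embryos, highest in control 4, against 4227 FPKM in 'SHF'. The part of blood content in other differences was not tested.

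Genes of the anterior second heart field ranked higher in 'SHF'. Of 17 genes, 2 were called higher in 'HEART' and 9 higher in 'SHF' (median -38.5 points). Tbx1, the T-box gene of the pharyngeal mesoderm at chr16:18580979-18590671, had 0.228, 0.517, 0.208 and 0.236 CPM per kb in 'HEART', against 25.7 FPKM in 'SHF' (-66.3 points). The co-activator gene Eya1, which acts in the same tissue, had 0.427, 0.322, 0.343 and 0.276 CPM per kb in 'HEART', against 23.3 FPKM in 'SHF'. Isl1, the marker of progenitors that is lost as they differentiate, had 2.12, 1.20, 2.44 and 1.55 CPM per kb in 'HEART', at percentile 27.9, against 17.7 FPKM in 'SHF', at percentile 67.4. Nkx2-6, a homeobox gene of the pharynx and OFT, had 2.18, 0.611, 4.44 and 1.46 CPM per kb in 'HEART', against 23.8 FPKM in 'SHF'. As the call itself requires, the 4 'HEART' embryos lay below the 'SHF' percentile for all of these.

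The 2 ligands for which the field is known were close in both tissues. Fgf10 had 2.90, 1.82, 2.08 and 3.84 CPM per kb in 'HEART' and 5.19 FPKM in 'SHF' (-2.29 points), and Fgf8 4.79, 2.31, 3.55 and 4.67 CPM per kb in 'HEART' and 9.52 FPKM in 'SHF' (-8.79 points). Wnt11, a non-canonical ligand of the OFT, was called the other way, with 10.8, 6.09, 8.85 and 11.3 CPM per kb in 'HEART', against 0.858 FPKM in 'SHF' (53.9 points). Hand2, which acts in both the field and the right ventricle, was also higher in 'HEART', at 71.8, 61.2, 68.5 and 57.9 CPM per kb, against 19.5 FPKM in 'SHF' (25.1 points).

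Genes assigned to the posterior second heart field divided. Of 19 genes, 6 were called higher in 'HEART' and 8 higher in 'SHF' (6 and 5 without division by length, where Nr2f2, Meis1 and Meis2 were not called). Those higher in 'HEART' were Gata4 and Tbx5, the Wnt genes Wnt2 (57.7, 44.4, 39.4 and 59.5 CPM per kb in 'HEART', against 3.31 FPKM in 'SHF') and Wnt4, the inflow tract gene Sfrp5 (16.2, 16.0, 13.98 and 9.91 CPM per kb in 'HEART', against 0.765 FPKM in 'SHF') and Shox2, a sinus node factor. Shox2 had 7.23, 8.08, 6.75 and 1.604 CPM per kb in 'HEART', lowest in control 4, against 1.47 FPKM in 'SHF'. Those higher in 'SHF' included the nuclear receptor and homeobox genes Nr2f1, Nr2f2, Meis1, Meis2 and Hoxb1, with Foxf1 and Foxf2. Hoxb1, which marks progenitors at the back of the field, had 1.09, 0.112, 0.105 and 0.322 CPM per kb in 'HEART', against 9.26 FPKM in 'SHF' (-37.3 points), and Nr2f1 5.85 ± 1.17 CPM per kb in 'HEART' (SD, n = 4), against 36.3 FPKM in 'SHF'. Osr1 was called in neither (4.78 ± 2.01 CPM per kb in 'HEART', 4.30 FPKM in 'SHF').

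**Figure D4:**
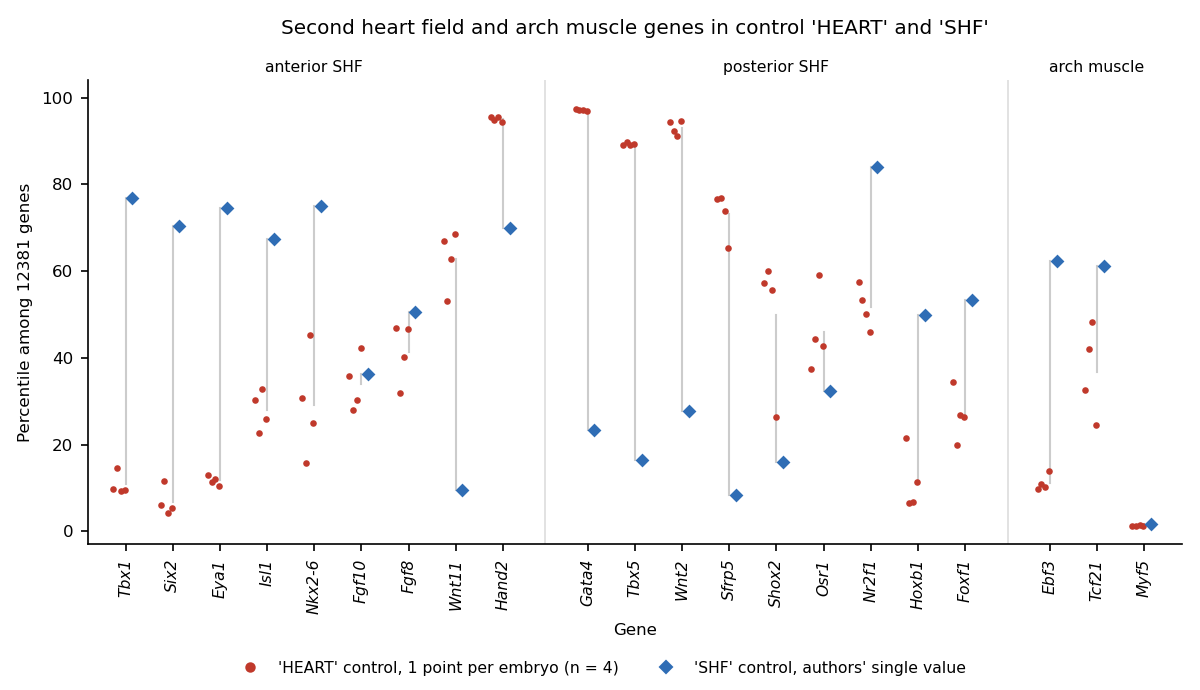
Percentile in each of the 4 'HEART' control embryos (red points) and of the 'SHF' control value (blue diamond) for genes of the anterior and posterior second heart field and of arch muscle. Tbx1, Six2 and Eya1 show the widest gaps with 'SHF' above 'HEART', and Gata4, Tbx5, Wnt2, Sfrp5 and Wnt11 lie the other way round.

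Head muscle progenitor genes went with Tbx1. Of 12 ranked genes 7 were called higher in 'SHF'. The early B-cell factor gene Ebf3 had 0.311 ± 0.114 CPM per kb in 'HEART' and 15.0 FPKM in 'SHF', and Tcf21 3.19 ± 1.5996 CPM per kb in 'HEART' and 14.3 FPKM in 'SHF'. The myogenic factor gene Myf5 was at 0 CPM per kb in 'HEART' and 0.416 FPKM in 'SHF', so muscle determination genes were near the lower end in both.

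Other arch cell types were clear in 'SHF' and low in 'HEART'. Genes at or near 0 in 'HEART' were ranked only because their 'SHF' locus had a test. The counts of arch, epithelial and neural genes higher in 'SHF' rest in part on that filter. Of 26 neural crest and arch mesenchyme genes 15 were called higher in 'SHF' and 0 higher in 'HEART' (median -24.98 points). Prrx1, a homeobox gene of craniofacial mesenchyme, had 0.874, 0.962, 0.793 and 1.75 CPM per kb in 'HEART', against 34.5 FPKM in 'SHF'. Dlx2, an arch homeobox gene, had 0.0934, 0.121, 0.199 and 0.0872 CPM per kb in 'HEART', against 13.3 FPKM in 'SHF', and Sox10, a marker of migratory crest, 0.0874, 0.709, 0.213 and 0.136 CPM per kb in 'HEART', against 11.9 FPKM in 'SHF'. Not every gene of the list differed. Prrx2 was at percentile 90.5 in 'HEART' and 92.7 in 'SHF', and the endothelin receptor gene Ednra at 82.8 in 'HEART' and 78.0 in 'SHF'.

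Of 19 pharyngeal endoderm genes 14 were called higher in 'SHF' and 1 higher in 'HEART'. Epcam, an epithelial adhesion gene, had 0.182, 0.197, 0.592 and 1.13 CPM per kb in 'HEART', against 47.0 FPKM in 'SHF' (-73.6 points). The pouch gene Pax9 had 0.0396, 0.0514, 0 and 0 CPM per kb in 'HEART', against 7.68 FPKM in 'SHF', and Shh 0.0234, 0.152, 0.799 and 0 CPM per kb in 'HEART', against 9.09 FPKM in 'SHF'. Defining endoderm genes were thus at or near 0 in 'HEART'. The simple epithelial keratins were not: Krt19 was called higher in 'HEART', at 46.6, 45.6, 47.4 and 78.0 CPM per kb, against 17.2 FPKM in 'SHF', and Krt18 was at percentile 94.4 in 'HEART' and 94.2 in 'SHF'. The summed list was 148 to 292 CPM per kb over the 'HEART' embryos, highest in control 4. Most of that sum was keratin RNA: of a mean of 185 CPM per kb, Krt8 gave 65.3, Krt18 57.5 and Krt19 54.4. Of 13 ectoderm and placode genes 6 were called higher in 'SHF', such as Foxi2 (0.231 ± 0.326 CPM per kb in 'HEART', 17.5 FPKM in 'SHF'), and Perp, a desmosomal gene, higher in 'HEART' (19.8 ± 0.619 CPM per kb in 'HEART', 5.41 FPKM in 'SHF').

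Neuronal genes were called higher in 'SHF' in 8 of 17 cases and higher in 'HEART' in 0. Tubb3, the neuronal beta-tubulin gene, had 1.53, 8.76, 6.09 and 0.711 CPM per kb in 'HEART', against 24.5 FPKM in 'SHF'. Of 13 somite and neural tube genes 6 were called higher in 'SHF', with Meox1, a somite homeobox gene, at 0.628, 0.932, 0.437 and 0.372 CPM per kb in 'HEART', against 44.3 FPKM in 'SHF' (-71.7 points). How much adjacent somite and neural tissue the dissection took was not tested.

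Positional and retinoid genes went the same way. Of 9 ranked anterior Hox genes 5 were called higher in 'SHF', such as Hoxb2 (2.33, 1.56, 0.862 and 2.62 CPM per kb in 'HEART', against 24.3 FPKM in 'SHF'), and 0 higher in 'HEART'. Only 3 posterior Hox genes were ranked, at most 1.85 FPKM in 'SHF', and 12 had no 'SHF' test. Of 12 retinoic acid genes 6 were called higher in 'SHF' and 0 higher in 'HEART'. Crabp1, a retinoic acid binding protein gene of crest and neural tissue, had 10.7, 13.1, 6.68 and 21.4 CPM per kb in 'HEART', against 898 FPKM in 'SHF', and Rdh10, which makes the precursor of retinoic acid, 1.57, 0.978, 0.976 and 1.18 CPM per kb in 'HEART', against 17.1 FPKM in 'SHF'. Aldh1a2, the enzyme that completes its synthesis, was similar in rank, at 2.08 ± 0.835 CPM per kb in 'HEART' and 4.85 FPKM in 'SHF'.

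Among signalling pathways, hedgehog genes ranked lower in 'HEART'. Of 12 genes 7 were called higher in 'SHF' and 0 higher in 'HEART' (median -23.4 points). The receptor and target gene Ptch1 had 2.40, 2.53, 2.61 and 2.78 CPM per kb in 'HEART', against 66.3 FPKM in 'SHF' (-58.5 points). The effector Gli3 had 2.68, 2.25, 2.25 and 2.87 CPM per kb in 'HEART', against 29.3 FPKM in 'SHF', and Gli1, a target, 0.307 ± 0.133 CPM per kb in 'HEART', against 5.78 FPKM in 'SHF'. The transducers Smo (-19.7 points) and Sufu (-5.08 points) were called in neither tissue.

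BMP genes leaned the other way, with 6 of 16 called higher in 'HEART' (against 9.04% of all genes) and 1 higher in 'SHF' (against 9.64%). Without division by length these counts were 5 and 3. The ligand Bmp7 had 60.0, 53.3, 59.1 and 55.1 CPM per kb in 'HEART', against 7.92 FPKM in 'SHF' (48.2 points), and the inhibitory Smad6 38.4, 28.2, 32.7 and 36.7 CPM per kb in 'HEART', against 9.41 FPKM in 'SHF'. The antagonist Nog was also higher in 'HEART' (8.88 ± 2.14 CPM per kb, 1.81 FPKM in 'SHF') and the antagonist Grem1 higher in 'SHF' (0.0234 ± 0.0180 CPM per kb in 'HEART', 3.12 FPKM in 'SHF'). The type I receptor gene Bmpr1a was at percentile 89.6 in 'HEART' and 90.9 in 'SHF', and the target Id2 at 96.5 in 'HEART' and 96.3 in 'SHF'.

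Wnt genes split by member, with 6 of 22 called higher in 'HEART' (against 9.04% of all genes) and 3 higher in 'SHF' (against 9.64%). Beside Wnt2, Wnt4, Wnt11 and Sfrp5, those higher in 'HEART' were Dkk3 (32.3, 36.2, 35.6 and 33.4 CPM per kb, against 2.41 FPKM in 'SHF') and Rspo3, an enhancer of Wnt signals (12.5 ± 2.37 CPM per kb in 'HEART', 1.80 FPKM in 'SHF'). Those higher in 'SHF' were the secreted inhibitors Sfrp2 (1.95, 1.77, 1.02 and 1.58 CPM per kb in 'HEART', against 37.9 FPKM in 'SHF') and Frzb (-19.8 points without control 2), and the target Axin2 (2.39 ± 0.224 CPM per kb in 'HEART', 15.6 FPKM in 'SHF'). Of 17 FGF genes 1 was called higher in 'HEART' (Fgf13) and 4 higher in 'SHF', among them the feedback inhibitor Spry1 (2.11, 2.92, 3.05 and 3.31 CPM per kb in 'HEART', against 22.2 FPKM in 'SHF') and the receptor Fgfr2. Of 14 Notch genes 2 were called higher in 'HEART' (against 9.04% of all genes) and 2 higher in 'SHF' (against 9.64%). Hey2 and Jag2 were higher in 'HEART' (Jag2 at 19.7 points without control 4 and 19.97 points without control 1). Notch2 and the glycosyltransferase gene Lfng were higher in 'SHF'. Of 32 guidance genes 4 were called higher in 'HEART' and 11 higher in 'SHF'. Without division by length these counts were 7 and 4, and the list median changed from -10.04 to 4.27 points. Unc5b and Slit3 were of the first kind (35.0 ± 1.12 CPM per kb in 'HEART' and 15.7 FPKM in 'SHF' for Unc5b) and Slit1, Unc5c and Ephb2 of the second (1.61 ± 0.134 CPM per kb in 'HEART' and 13.6 FPKM in 'SHF' for Unc5c).

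Housekeeping programmes were ranked alike. Of 29 cell cycle genes 29 were called in neither tissue, with a median difference of -0.824 points and a range of -17.5 to 16.2 points. Their median percentile was 92.2 in 'HEART' and 93.5 in 'SHF', where ranks leave little room for a rise. By a centred log2 ratio of at least 2 in size (pseudocount 0.1), 1 was higher in 'HEART' and 0 higher in 'SHF'. The proliferation marker Mki67 had 23.2, 35.6, 36.4 and 25.2 CPM per kb in 'HEART' and 31.8 FPKM in 'SHF'. All 13 ranked imprinted genes were likewise uncalled, at median percentiles of 92.8 in 'HEART' and 94.4 in 'SHF'. By the same log2 measure 2 of them were higher in 'HEART' and 0 higher in 'SHF'. Extracellular matrix genes were called at about the share of all genes, with 4 of 40 higher in 'HEART' (against 9.04% of all genes) and 4 higher in 'SHF' (against 9.64%). This depended on gene length: without division by it 8 were higher in 'HEART' and 1 higher in 'SHF'. Fn1 was at percentile 98.9 in 'HEART' and 98.2 in 'SHF'. Among the matrix genes called, Lama4, a laminin chain of muscle and vessel, was higher in 'HEART' (22.8 ± 2.29 CPM per kb, 7.37 FPKM in 'SHF') and the cartilage collagen gene Col9a1 higher in 'SHF' (1.20 ± 0.187 CPM per kb in 'HEART', 16.7 FPKM in 'SHF'). Col1a1 rested on control 4, with 7.81, 5.33, 9.73 and 109 CPM per kb in 'HEART' and 21.8 FPKM in 'SHF', and was not called.

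Chd7, the remodeller gene deleted in the mutants of the series, had nearly the same rank in both tissues. It had 17.2, 16.5, 16.8 and 17.7 CPM per kb in 'HEART', at percentile 78.0, and 28.2 FPKM in 'SHF', at percentile 78.9. Of 24 chromatin remodeller genes 4 were called higher in 'HEART' (against 9.04% of all genes) and 2 higher in 'SHF' (against 9.64%). The subunits Smarcd3 (42.5, 36.7, 36.2 and 41.6 CPM per kb in 'HEART', against 7.53 FPKM in 'SHF', 46.0 points) and Dpf3 (9.37 ± 1.10 CPM per kb in 'HEART', 3.10 FPKM in 'SHF') of the BAF complex of heart and muscle were higher in 'HEART'. The ATPase gene Smarca2 was higher in 'SHF' (2.28, 2.21, 2.44 and 2.13 CPM per kb in 'HEART', against 22.8 FPKM in 'SHF'), as was Chd6. Neither was called without division by length, where Chd6 changed sign to 4.68 points. Chd8 was called higher in 'HEART', but its symbol also lay in a joined 'SHF' locus of 189.6 FPKM.

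RNA classes that the kits treat differently were set apart from these results. Replication-dependent histone mRNAs carry no poly(A) tail, and 37 of 39 were called higher in 'SHF' and 0 higher in 'HEART'. Their summed level was 37.8 to 204 CPM per kb over the 'HEART' embryos, against 32557 FPKM in 'SHF'. Small nucleolar and Cajal body RNA genes were called higher in 'SHF' in 22 of 28 cases. Terc, the telomerase RNA, with 0.158, 0.409, 0 and 0.196 CPM per kb in 'HEART' and 89.1 FPKM in 'SHF', and Rmrp are also RNAs without a poly(A) tail. Some protein-coding genes of large difference in 'SHF' were listed at almost no 'HEART' counts although they are used widely. Akr1b3 had 0 counts in all 4 'HEART' embryos and 35.4 FPKM in 'SHF', and Oaz1 had 1.07, 0.575, 0.953 and 0.778 CPM per kb in 'HEART' and 133 FPKM in 'SHF'. The part of gene annotation in such values was not tested. Hmga1, Eno1, Amd1 and Rmrp share 70.7% to 94.3% of their words with other genes.

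**Figure D5:**
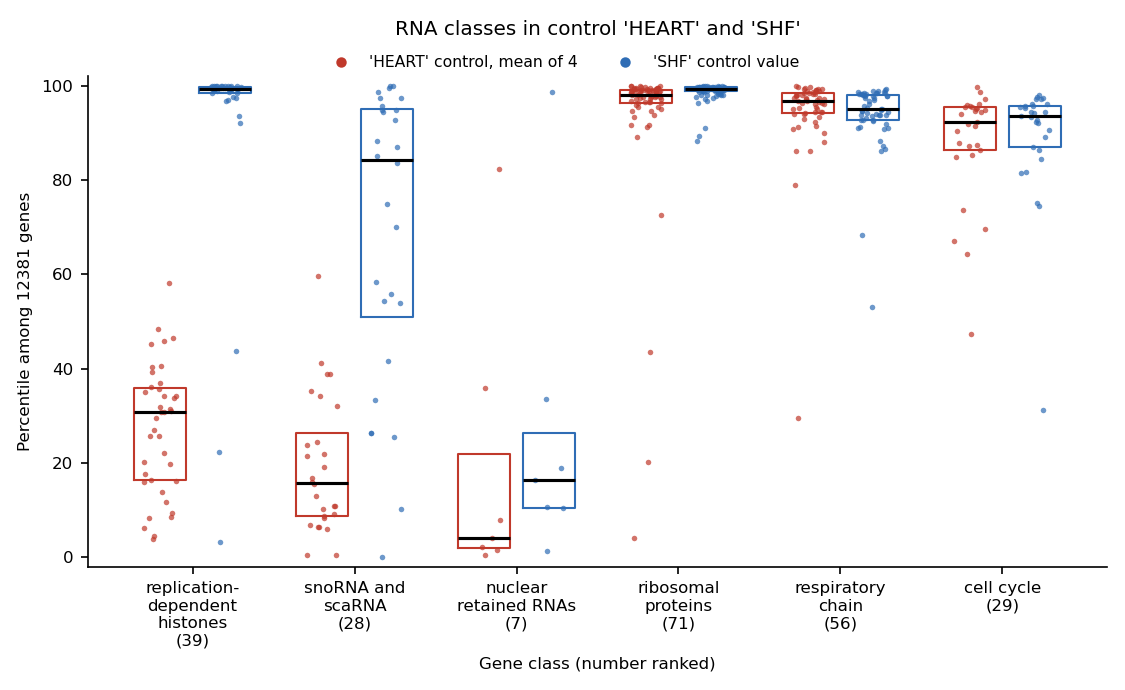
Percentiles in 'HEART' control embryos (red, mean of 4) and in the 'SHF' control value (blue) of the members of 6 gene classes, with boxes from the lower to the upper quartile, a line at the median and every member as a point. Histone genes and small nucleolar RNAs lie low in 'HEART' and high in 'SHF', while cell cycle genes overlap and ribosomal protein genes are near the top in both.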

How the data were processed

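RNA from single control embryos at E9.5 was analysed. The 'HEART' counts, per the study's methods, were made by the authors with fastp 0.20.1, RNA STAR 2.7.2b on mm10 and featureCounts 1.6.4 and deposited as raw counts. The 'SHF' FPKM were deposited by the authors as 1 value per genotype on merged loci. For these the methods state STAR 2.5.0b, HTSeq and DESeq2, and the tool behind the FPKM and the strand settings are not given in the sources used here. The authors' fold changes and p-values and 8 normalised per-sample columns were not used.

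Counts were divided by the library total and by the summed exon length of GENCODE M21, averaged over the 4 embryos, and ranked. For 'SHF', loci of status OK with 1 symbol were ranked by FPKM, taking the locus of highest FPKM for 413 symbols with several. Lengths were matched through RefSeq synonyms for 358 symbols, and 27 rows whose symbols had become dates were dropped. Of 18008 loci of status OK, 597 joined several genes and 4492 had no gene name. The percentile was 100 x (rank - 0.5)/n, and the log2 ratio used a pseudocount of 0.1, which understates differences of low genes. Each pair of 'HEART' embryos differed by more than counting noise (chi-square per gene 6.10 to 15.9).

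Named were, in each direction, the 12 called genes of largest difference at percentile 75 or more, the 6 of highest level, up to 10 members of each of 43 lists and those called against their list, Chd7, 10 tissue markers, and up to 8 genes without an 'SHF' test. Members and lists were chosen with earlier results of these data known. A gene was called uncertain when at least 25% of the 43-base words of its longest transcript occurred in another gene or its symbol also lay in a joined locus, a rule added after seeing the data. Promoters were taken from RefSeq (GRCm38.p6), and gene positions from GENCODE M21. The CArG box is CC, 6 bases of A or T, then GG. The MEF2 site is CTA, 4 bases of A or T, then TAG. Both strands were searched. Alternatives covered length, scaling, averaging, thresholds, the genes ranked and single embryos. R 4.3.3 with edgeR 4.0.16 gave TMM and RLE factors, and Python 3.11.15 with pandas 2.3.3, numpy 2.4.6 and scipy 1.17.1 was used for the rest. Some genes that the rule names are not reported here. The ranking code was checked on simulated data.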

Additional observations from a re-analysis of the deposited data

Results flagged for a closer look

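In 19 of the 170 ranked genes named in the text, 1 of the 4 'HEART' control embryos stood apart from the other embryos past the critical value of Dixon's test at 4 samples, where chance alone gives about 1 in 20. Control 4 was that embryo in 9 genes, control 2 in 6, control 1 in 4 and control 3 in 0.

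Control 4 was high for epithelial and connective tissue genes. Its Krt18 level was 95.9 CPM per kb, with 43.6 to 46.4 in the other embryos, and its Krt19 level 77.96 CPM per kb. Col1a1, a fibrillar collagen gene, was at 109 CPM per kb there and at 5.33 to 9.73 in the others, Snai2 at 4.43 and Foxi2 at 0.718 CPM per kb. Amd1, which is not a gene of these kinds and shares words with other genes, was flagged at 0.0234 CPM per kb, with 0 in the others. That value is too near 0 to describe the embryo. Control 4 was low for Casq1 (227 CPM per kb, with 268 to 270.3 in the others), Fabp3 (73.9) and the troponin gene Tnnc1 (952). Over whole lists, the summed pharyngeal endoderm level of control 4 was 292 CPM per kb and its summed erythroid level 17742 CPM per kb. The endoderm sum was mostly keratin RNA, so in large part it repeats the keratin values above.

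Control 2 was high for Nfatc1 (13.5 CPM per kb), Twist1 (11.2), Tbx1 (0.517), the ribosomal protein gene Rps28 (15.8) and Rmrp (34.2, with 0.886 to 2.89 in the others) and low for Tead1 (26.9). Its summed yolk sac plasma protein and steroid level was 34.6 CPM per kb, and its summed histone level 204 CPM per kb, with 37.8 to 45.0 in the others. Control 1 was high for the ventricular genes Irx4 (45.8 CPM per kb) and Hey2 (16.5) and for Ier2 (32.02), and low for Foxf2 (0.0282). The part of dissection, library or embryo in these values was not tested.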

How the results depend on the processing

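The counts of 1119 and 1194 genes changed by over 1.5 times with the threshold, the measure and the genes ranked. A rank difference of 10 points gave 2497 higher in 'HEART' and 2837 higher in 'SHF', and 30 points gave 542 and 499. A centred log2 ratio of at least 2 in size with a pseudocount of 1 gave 453 and 355. Ranking 22267 genes of any 'SHF' status gave 520 and 466, with a rho of 0.924. With the longest transcript as length the rho was 0.823. Leaving out genes that share words or lie in joined loci, chosen after seeing the data, gave 0.815. Leaving out 1 'HEART' embryo at a time gave 1106 to 1136 genes higher in 'HEART', 1191 to 1199 higher in 'SHF' and a rho of 0.8024 to 0.8085, and without control 4 the counts were 1125 and 1199. The causes were not tested. Of the 170 ranked genes named in the text, 46 had another call with any 'SHF' status, among them Myh7 (18.98 points), Hand2 (13.97), Srf, Crabp1 (-15.6), Nr2f1 and Twist1, 46 with the log2 ratio at a pseudocount of 1 and 34 at 0.1. With any 'SHF' status the sarcomere and Z-disc genes higher in 'HEART' were 34 of 46, the cardiac transcription factors 13 of 22, erythroid genes 2 of 14 and fatty acid and creatine genes 2 of 19, and those higher in 'SHF' were 9 of 17 in the anterior second heart field, 13 of 28 in neural crest, 14 of 20 in endoderm, 3 of 12 in hedgehog, 2 of 13 in retinoic acid and 2 of 33 in guidance genes. The background of these counts is the 520 and 466 of 22267 genes called in that ranking, smaller shares than in the main ranking. The added genes also changed the percentiles of all others. Without division by length Chd6 changed sign to 4.68 points and the guidance list median to 4.27 points, and 27 of the named genes had another call. Those lost were Bmp4, Klf2, Krt19, Nog, Fgf13, Gja1, Emcn, Cald1, Fgfr2, Nr2f2, Meis1, Meis2, Notch2, Ephb2, Unc5c, Sema3d, Smarca2, Atf3, Btg2, Fos, Hsd3b6 and Chd6, while Pecam1, Mef2a and Mef2c became higher in 'HEART' and Fgf8 and Ier2 higher in 'SHF'. TMM or RLE scaling, the median of the embryos, summed loci, protein-coding genes alone and no minimum level left both counts within 1.5 times (a minimum level of 5 gave 890 and 1093). Tbx1, Eya1 and Isl1 kept their calls without division by length. Depth limits genes near 0 in 'HEART', and is unknown for 'SHF'. No paired analysis was possible because the 'SHF' table holds 1 value per genotype.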

Other observations

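Some gene groups outside the comparison of heart and pharyngeal programmes were also measured. Of 10 immediate early genes, which are induced within minutes by stimulation or handling, 4 were called higher in 'HEART' and 0 higher in 'SHF', with a list median of 12.2 points. Fos had 3.49, 3.90, 3.56 and 2.40 CPM per kb in 'HEART', against 1.10 FPKM in 'SHF', and Atf3 4.55, 6.99, 5.96 and 5.20 CPM per kb in 'HEART', against 2.26 FPKM in 'SHF'. Egr1 and Btg2 were also called, whereas Ier2 was at percentile 87.4 in 'HEART' and 84.1 in 'SHF'. Without division by length 1 was called higher in 'HEART' and 1 higher in 'SHF', and with any 'SHF' status 0 were called in either direction.

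Macrophage genes were close to 0 in both tissues. Only Mrc1 of the 12 was ranked (0.633 ± 0.237 CPM per kb in 'HEART' (SD, n = 4), 0.353 FPKM in 'SHF'). Of 11 ranked yolk sac plasma protein and steroid genes 1, Hsd3b6, was called higher in 'HEART' (5.58 ± 0.852 CPM per kb in 'HEART', 2.73 FPKM in 'SHF').

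Of 71 ribosomal protein genes 67 were called in neither tissue. Those called higher in 'SHF' were Rps28, Rpl34, Rps27 and Rpl26, the last with 0.0646 ± 0.0750 CPM per kb in 'HEART' and 942 FPKM in 'SHF', and Rps27 and Rpl26 share words with other genes or lie in joined loci. Median percentiles of the 71 genes were 98.1 in 'HEART' and 99.2 in 'SHF', where ranks leave little room for a rise. By a centred log2 ratio of at least 2 in size (pseudocount 0.1), 11 were higher in 'SHF' and 0 higher in 'HEART'. None of the 7 ranked nuclear retained RNAs was called. Malat1 was nearest to the threshold (21.4 ± 4.31 CPM per kb in 'HEART', 315 FPKM in 'SHF', -16.4 points). Its centred log2 ratio was -3.03, so by that measure it was higher in 'SHF'.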
